A study of Mus musculus with 26 samples.

Results

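Phospholamban and 9 genes for calcium pumps and sodium-calcium exchangers were followed across 8 subtypes of mouse dorsal root ganglion neuron. The 10 genes were taken by symbol from the 38828 rows of the table of RPKM (read counts scaled by gene length and library size), and all 10 were found and passed the filter on low counts. The 9 other than Pln were taken for their family: Atp2a2 and Atp2a3 encode pumps of the endoplasmic reticulum (SERCA), Atp2b1 to Atp2b4 encode pumps of the plasma membrane (PMCA), and Slc8a1 to Slc8a3 encode sodium-calcium exchangers (NCX). Pln itself was picked because its level in these same libraries was high in proprioceptors. Its levels are therefore given as a description with no test.

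RNA came from fluorescent neurons sorted from acutely dissociated ganglia of adults (from postnatal day 23 on), in 26 libraries: 5 of Aβ RA-LTMRs and 3 of each other subtype, where LTMR stands for low-threshold mechanoreceptor. The GFP lines MrgD-EGFP, CGRP-GFP and Npy2r-GFP marked nonpeptidergic nociceptors, peptidergic nociceptors and Aβ RA-LTMRs, in that order, without tamoxifen. C-LTMRs carried ThCreER;R26tdtomato(Ai14), with tamoxifen at 2 mg per day on postnatal days 13 and 14 or 14 and 15. Aδ-LTMRs carried TrkBCreER;R26tdtomato(Ai14), with 2 mg per day on embryonic days 12 and 13. Aβ SA1-LTMRs and Aβ Field-LTMRs both carried TrkCCreER and a GFP allele of Ret, with 3 mg per day at E12.5 in the former and 2 mg per day on postnatal days 13 and 14 or 14 and 15 in the latter. Proprioceptors carried PVIRESCre;R26tdtomato(Ai14) without tamoxifen and came from thoracic ganglia alone, since per the series' design text this Cre also marks some skin afferents at limb levels. The other subtypes came from ganglia of every axial level, so axial level, driver line and tamoxifen cannot be told apart from subtype. Each library combined several mice and rounds of sorting, and p-values measure the spread between such pools.

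Calcium that enters a neuron during firing is removed from the cytosol by these proteins. SERCA pumps use ATP to return calcium to the endoplasmic reticulum, PMCA pumps use ATP to expel it with high affinity, and NCX exchangers expel larger loads by letting sodium in. Phospholamban is a small membrane protein, best known in heart and slow muscle, that lowers the calcium affinity of SERCA until it is phosphorylated by protein kinase A or by calcium/calmodulin-dependent kinase II.

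The coding sequence of Pln is shown whole because it is short and holds both of these phosphorylation sites: its 156 bases, identical in all 6 coding transcripts of GENCODE mouse release 21, spell 52 codons, and the capitals mark serine codon 16 and threonine codon 17, the sites of protein kinase A and of the calmodulin-dependent kinase. Of the 6 pumps, 5 are shown at the codon of the aspartate that takes phosphate from ATP in each pumping cycle (capitals). The 18 bases after it are also shown, because SERCA and PMCA genes share this stretch as members of one enzyme superfamily. Atp2b3 was not examined for this stretch, so its absence says nothing about its sequence.
Pln coding sequence: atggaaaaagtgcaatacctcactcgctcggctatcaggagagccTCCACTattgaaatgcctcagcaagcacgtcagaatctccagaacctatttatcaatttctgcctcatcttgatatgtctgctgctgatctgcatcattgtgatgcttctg
Atp2a2: GATaagacaggcacacttacc
Atp2a3: GACaagacggggacgctcacc
Atp2b1: GATaaaacaggaaccctgacg
Atp2b2: GACaagacaggaacgctgacc
Atp2b4: GATaagacaggcacactgacc

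The aspartate is codon 351 of Atp2a2 and Atp2a3, 475 of Atp2b1, 499 of Atp2b2 and 466 of Atp2b4, and 14 of the 21 positions are the same base in these 5 pumps. Paralogues were nonetheless separable by reads: of all stretches of 50 bases in the annotated transcripts, the families shared none except 7 between Atp2b2 and Atp2b3, which is 0.055% of those of Atp2b2 and 0.145% of those of Atp2b3. At 25 bases, the length of the shortest reads in 6 libraries and longer than the shortest reads of the rest, the shared part was at most 1.15%, in Atp2b3.

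On mm10 the genes lie apart from one another. Pln is at chromosome 10, 53337667 to 53345987 on the plus strand, and Atp2b1 is on the same chromosome at 98914406 to 99026143. Atp2a2 is at chromosome 5, 122453513 to 122502225, and Atp2a3 at chromosome 11, 72961169 to 72993044. Among the other plasma membrane pumps, Atp2b2 is at chromosome 6, 113743831 to 114042613, Atp2b3 at chromosome X, 73503086 to 73571005, and Atp2b4 at chromosome 1, 133699457 to 133801041. Slc8a1 is at chromosome 17, 81373105 to 81738377, Slc8a2 at chromosome 7, 16129826 to 16161063, and Slc8a3 at chromosome 12, 81197915 to 81333180.

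Total counts ran from 10706522 (Aβ Field-LTMR library 2) to 66309214 per library. Aδ-LTMR libraries 1 and 2 stood apart by mapping rates of 61.4% and 74.5%, against 86.1% to 97.7% in the others. All 7 sensory neuron markers were found in every subtype. Of the genes that name the reporter lines, Mrgprd, Calca, Th, Ntrk2 and Pvalb were highest in their own subtype and Ntrk3 in Aβ SA1- and Aβ Field-LTMRs. Ret, whose GFP allele marks Aβ SA1- and Aβ Field-LTMRs together with TrkCCreER, was at 274 and 450 CPM (counts scaled to a common library size) there against 1356 in C-LTMRs and 1231 in nonpeptidergic nociceptors. Npy2r was at 20.4 ± 5.01 (SD, n = 5) in Aβ RA-LTMRs and 52.9 ± 4.99 (n = 3) in peptidergic nociceptors. Levels below are CPM after TMM scaling unless RPKM is named, and 1 gene is set against another only on values per gene length.

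Pln was the single member whose RNA was abundant in 1 subtype and scarce in the other 7. The 3 proprioceptor libraries held 73.1, 87.9 and 111 CPM (1611, 4421 and 6533 counts). The next highest subtype, Aβ SA1-LTMRs, held 0.596, 5.01 and 2.69 CPM. No library outside proprioceptors exceeded 5.01 CPM, so the proprioceptor libraries did not overlap with any other.

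In the remaining subtypes Pln was low, at 7 to 234 counts in a library. Aβ RA-LTMR libraries 1 to 5 held 2.16, 1.59, 2.25, 2.62 and 0.219 CPM, and Aδ-LTMR libraries 2.82, 0.929 and 1.26 CPM. Peptidergic nociceptors held 0.863, 1.34 and 1.41 CPM, Aβ Field-LTMRs 0.346, 1.62 and 1.01, C-LTMRs 0.715, 0.487 and 1.12, and nonpeptidergic nociceptors 0.428, 0.393 and 0.630. These 7 subtypes overlapped with at least 1 neighbour in the order of their means. The proprioceptor mean of 90.5 ± 18.9 CPM (SD, n = 3) was 32.7 times the Aβ SA1-LTMR mean of 2.77 ± 2.21 (n = 3) and 187 times the nonpeptidergic mean of 0.483 ± 0.128 (n = 3). The spread among Aβ SA1-LTMR libraries moved the first ratio: it was 23.5 without their library 1, and 51.2 without their library 2, when Aβ RA-LTMRs became the next highest. In bulk RNA of sorted cells, fewer cells of a kind and less RNA per cell cannot be told apart, here and in the results that follow.

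**Figure D1:**
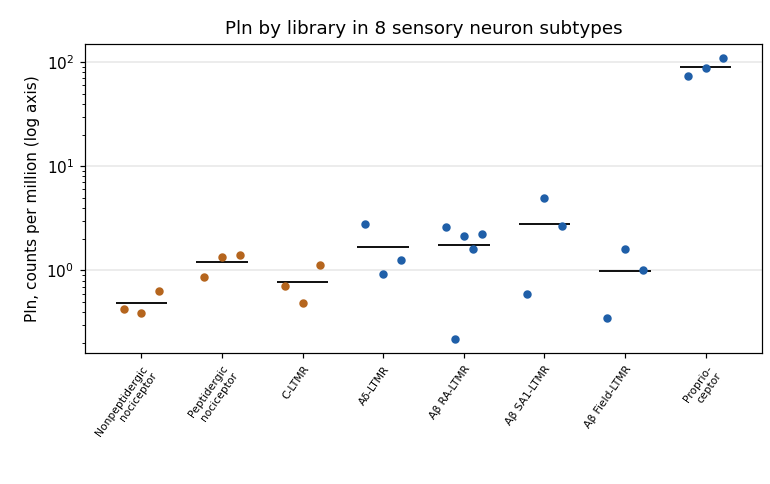
Pln in CPM (log axis) in each of 26 libraries (points; nociceptors and C-LTMRs brown, A-fibre subtypes blue), with the mean of each subtype as a bar. The 3 proprioceptor libraries sit between 73.1 and 111, and the other 23 libraries between 0.219 and 5.01.

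Set against its target on the per-length scale, Pln was far higher relative to SERCA RNA in proprioceptors than elsewhere. This restates the pattern Pln was picked for, since subtype means of summed SERCA ran only from 60.0 to 114 RPKM. For every 100 RPKM of Atp2a2 and Atp2a3 summed, proprioceptor libraries held 18.9 ± 3.59 RPKM of Pln (SD, n = 3; 14.8 to 21.6), and subtype means elsewhere ran from 0.136 to 0.683. SERCA itself was no higher in proprioceptors, at 98.3 ± 10.8 RPKM, than in Aδ-LTMRs (98.9 ± 11.6, n = 3), Aβ RA-LTMRs (105 ± 32.9, n = 5) or Aβ SA1-LTMRs (114 ± 30.5, n = 3). Sln, which encodes sarcolipin, the other classic small inhibitor of SERCA, had no count in any library of any subtype, which in proprioceptors allows a level of up to 0.0228 CPM (3 counts over the group, counting error only).

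Phospholamban is a muscle gene, so the muscle markers are given beside it. The striated muscle list of 12 genes summed to 11.5 to 14.9 CPM in proprioceptors, 9.50 to 13.8 in Aβ SA1-LTMRs and 1.36 to 6.28 elsewhere. In proprioceptors that sum was mostly Ttn (5.51 CPM), Myl3 (4.68) and Myl2 (2.05). Myl3 and Myl2, light chains of cardiac and slow muscle myosin, were like Pln highest in proprioceptors, with at most 0.350 and 0.244 CPM in another subtype mean, while Ttn was highest in Aβ SA1-LTMRs. The other 9 markers of the list each averaged at most 0.511 CPM in proprioceptors, and Actc1, Mb, Myh7 and Tnnc1 at most 0.0963. No marker of this list averaged 0 in proprioceptors. The list of 8 pericyte and smooth muscle markers summed to at most 21 CPM in a proprioceptor library and to 688 to 1755 in C-LTMRs, where Pln was at most 1.12. Nearly all of the C-LTMR sum was Rgs5, at 1273 CPM, while Acta2 averaged 0.318 and Tagln 1.03. The part of muscle or pericyte RNA in the Pln level was not tested.

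Satellite glia markers, 10 genes with none at 0 in any subtype, summed to 2088 to 4260 CPM in proprioceptors and to 426 to 3346 in the others, lowest in nonpeptidergic nociceptors and highest in Aβ RA-LTMRs. The Aβ RA-LTMR libraries, which reach into the proprioceptor range of this sum, held at most 2.62 CPM of Pln, and the part of glial RNA in the Pln level was not tested. Pln lies inside Cep85l, a gene on the opposite strand whose exons cover 141 bases (5.11%) of Pln exons, and whether counting used the strand is not given in the sources used here, so reads of the overlap cannot be told apart. Cep85l was at 5.99 ± 1.35 CPM in proprioceptors (SD, n = 3) and no lower than 5.09 in the mean of any other subtype. A further noncoding model on the opposite strand, Gm47644, covers 1644 bases (59.6%) of Pln exons and is not among the counted genes.

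Genes whose pattern over the 26 libraries was most like that of Pln were ranked by Pearson's r of log2 CPM, a description over libraries that share subtype and depth. They were Lmcd1 (r = 0.928), Ybx2 (0.900), Nxph1 (0.897), Mir1199 (0.895) and Sntg2 (0.888). Nxph1, a secreted ligand of neurexins, held 107 CPM in proprioceptors and at most 2.75 in another subtype mean. Lmcd1 was at 10.9 CPM in proprioceptors, and Ybx2, Mir1199 and Sntg2 were under 3 CPM there. Among the other members, the strongest correlations with Pln were -0.465 (Atp2b1) and 0.425 (Atp2a2).

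The 9 family members were tested with edgeR's quasi-likelihood test, with Benjamini-Hochberg adjustment over 17411 genes. All 9 differed among the 8 subtypes at an adjusted p under 0.05, in a table where 78.3% of all genes did. The mean of the 5 A-fibre subtypes (Aδ-LTMR, the 3 Aβ-LTMRs and proprioceptors, with myelinated axons) was then compared with the mean of nociceptors and C-LTMRs, and a gene was called when it also differed by at least 1 on the log2 scale. Of the 9, 3 were called higher in A-fibre subtypes (Atp2b2, Atp2b3 and Slc8a3; background 15.6% of genes) and 2 lower (Atp2a3 and Atp2b4; background 12.9%). The same 5 genes were called when a satellite glia score was added to the fit. That fit called 2908 of all genes, 51.9% of them higher in A-fibre subtypes, against 4969 without the score. The background itself moved with the processing: 54.8% of the 4969 genes called were higher in A-fibre subtypes, against 47.6% of 5613 without the filter on low counts. With limma, which changes unit, test and filter together, it was 40.1% of 1956 on log2(RPKM + 1) and 43.1% of 3401 on log2(RPKM + 0.1).

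**Figure D2:**
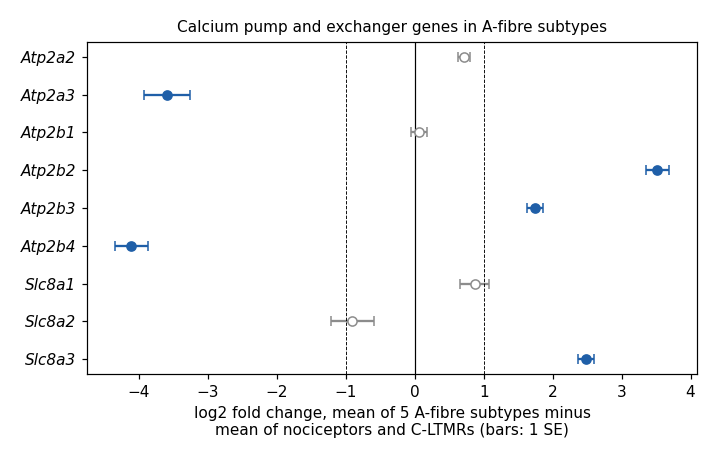
Log2 fold change of 9 genes between the mean of 5 A-fibre subtypes and the mean of nociceptors and C-LTMRs, with bars of 1 SE. Filled points passed the threshold of 0.05 on the adjusted p and lie beyond the dashed fold limits of 1: Atp2b2, Atp2b3 and Slc8a3 lie to the right, and Atp2a3 and Atp2b4 to the left.

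Differences between single subtypes were frequent, both across the classes and among nociceptors and C-LTMRs. Over 28 pairs of subtypes, 121 of the 252 combinations of gene and pair were called (48%; background 21.8% of all gene and pair combinations). Within the A-fibre subtypes 17 of 90 were called (18.9%; background 13.3%), within nociceptors and C-LTMRs 17 of 27 (63%; background 20.7%), and across the classes 87 of 135 (64.4%; background 27.7%). Atp2a3 was called in the most pairs, 23 of 28, followed by Atp2b4 (18), Slc8a3 (17), Slc8a1 (16), Atp2b2 (15) and Slc8a2 (14), while Atp2b1 and Atp2b3 were called in 7 each and Atp2a2 in 4. Pairs of subtypes share libraries, and the members were chosen with earlier results of these data known, so these counts are a description. On log2(RPKM + 1), which compresses the differences of low genes, limma called 72 of the 252.

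The reticulum pump was almost entirely Atp2a2, the SERCA2 gene of heart, slow muscle and most other cells. Its share of summed SERCA RPKM was at least 97.0% in the mean of every subtype. C-LTMR libraries held 300, 303 and 296 CPM, nonpeptidergic nociceptors 382, 386 and 369, and peptidergic nociceptors 444, 454 and 481. A-fibre libraries ran from 424 to 781, above the C-LTMR and nonpeptidergic libraries and overlapping with peptidergic ones through Aβ RA-LTMR library 5 and Aβ Field-LTMR library 2. The A-fibre mean was higher by 0.71 on the log2 scale (SE 0.09, adjusted p = 1.98e-07), which is under the fold limit. Only C-LTMRs were called against single subtypes, lower than Aδ-LTMRs, Aβ RA-LTMRs, Aβ SA1-LTMRs and proprioceptors by 1.06 to 1.11 (largest adjusted p = 2.8e-05), and no 2 neighbours in the order of subtypes were called.

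Atp2a3, the SERCA3 pump known from blood, epithelial and endothelial cells, was a minor transcript found chiefly in C-LTMRs and peptidergic nociceptors. C-LTMR libraries held 6.81, 7.15 and 7.98 CPM and peptidergic libraries 4.19, 2.47 and 3.65, with no overlap between the 2 subtypes or with any other. Aδ-LTMRs followed at 0.656 ± 0.146 CPM (SD, n = 3) and proprioceptors at 0.356 ± 0.112 (n = 3). Aβ RA-LTMRs, Aβ Field-LTMRs and nonpeptidergic nociceptors averaged 0.127, 0.0591 and 0.0533, and the 3 Aβ SA1-LTMR libraries had no count, which allows up to 0.0171 CPM (floor of 3 counts over the group), so C-LTMRs were at least 427-fold higher.

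Peptidergic nociceptors exceeded Aδ-LTMRs in Atp2a3 by 2.38 on the log2 scale (SE 0.46, adjusted p = 0.000415). The step from peptidergic nociceptors to C-LTMRs, 1.09 (SE 0.43, adjusted p = 0.0986), missed the threshold with edgeR and passed it with DESeq2 (1.08, adjusted p = 0.00682). The A-fibre mean was lower by -3.59 (SE 0.33, adjusted p = 2.32e-09), a fitted value that depends on the prior count because 1 subtype is at 0. On log2(RPKM + 1) the difference was -0.71 and no longer reached the fold limit. The 7 endothelial markers summed to 35.4 to 67.0 CPM in Aδ-LTMRs, to 8.98 to 10.3 in C-LTMRs and to at most 16.0 in any library outside Aδ-LTMRs. One of them, Egfl7, had its highest mean in C-LTMRs (8.05 CPM), and the part of endothelial RNA in the Atp2a3 level was not tested.

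Among the plasma membrane pumps, 2 paralogues differed between the classes in opposite directions. Atp2b4, which encodes PMCA4, a slow pump found in most tissues, had the most RPKM of the family in all 3 peptidergic nociceptor libraries. In nonpeptidergic nociceptors it led only in library 3, with 70.9% of the family against 25.03% for Atp2b1, and Atp2b1 led in libraries 1 and 2 (49.8% and 47.5%, against 41.6% and 46.0% for Atp2b4). Atp2b2, which encodes PMCA2, the fast pump of hair cells and cerebellar neurons, led in every library of C-LTMRs and A-fibre subtypes.

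Atp2b4 was high in every nociceptor and C-LTMR library and low in every A-fibre library. Peptidergic nociceptors held 457, 385 and 345 CPM, C-LTMRs 166, 117 and 163, and nonpeptidergic nociceptors 83.6, 80.9 and 218. A-fibre values were 31.0, 8.14 and 22.6 CPM in Aδ-LTMRs, 7.11, 2.93, 14.7, 7.64 and 8.59 in Aβ RA-LTMR libraries 1 to 5, 11.03, 9.21 and 10.97 in Aβ SA1-LTMRs, 11.95, 17.9 and 6.56 in Aβ Field-LTMRs, and 12.3, 7.12 and 7.24 in proprioceptors. The highest A-fibre library (31.0) was below the lowest of the rest (80.9).

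The A-fibre mean of Atp2b4 was lower by -4.11 on the log2 scale (SE 0.24, adjusted p = 1.55e-13), and all 15 pairs across the classes were called. Nonpeptidergic nociceptors, the lowest of the upper 3 with their library 3 well above the other 2, exceeded Aδ-LTMRs by 2.63 (SE 0.48, adjusted p = 8.74e-05). Peptidergic nociceptors exceeded C-LTMRs by 1.41 (SE 0.46, adjusted p = 0.0371). That call was lost when any 1 of the 6 libraries of these subtypes was left out (1.27 to 1.504, adjusted p up to 0.167) and with the satellite glia score in the fit (1.15, adjusted p = 0.163), and in 10 of 36 alternatives in all. Within the A-fibre subtypes the single call was Aδ-LTMRs over Aβ RA-LTMRs (1.33, SE 0.40, adjusted p = 0.0217).

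Atp2b2 was lowest in nonpeptidergic nociceptors, higher in peptidergic nociceptors, higher again in C-LTMRs and highest in most A-fibre subtypes. Nonpeptidergic libraries held 13.5, 4.62 and 6.30 CPM, peptidergic 36.3, 73.8 and 61.8, and C-LTMR 404, 447 and 371. A-fibre libraries held 974, 1163 and 733 CPM in Aδ-LTMRs, 721, 678, 815, 739 and 614 in Aβ RA-LTMR libraries 1 to 5, 721, 744 and 602 in Aβ SA1-LTMRs, 731, 595 and 565 in proprioceptors, and 530, 431 and 298 in Aβ Field-LTMRs. Neither nociceptor overlapped with any other subtype, and C-LTMRs overlapped only with Aβ Field-LTMRs.

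The step from nonpeptidergic to peptidergic nociceptors in Atp2b2 was 2.81 on the log2 scale (SE 0.30, adjusted p = 5.95e-08), and that from peptidergic nociceptors to C-LTMRs was 2.83 (SE 0.30, adjusted p = 1.63e-07). C-LTMRs were called below Aδ-LTMRs by 1.23 (SE 0.29, adjusted p = 0.00196). They were also below Aβ RA-LTMRs and Aβ SA1-LTMRs by 0.81 and 0.76 (adjusted p = 0.0137 and 0.0348), under the fold limit, while the difference from Aβ Field-LTMRs was within the spread (0.04, SE 0.28, adjusted p = 0.936). Aδ-LTMRs exceeded Aβ Field-LTMRs by 1.19 (SE 0.29, adjusted p = 0.00542), the single call within the A-fibre subtypes. The A-fibre mean was higher by 3.52 (SE 0.17, adjusted p = 4.08e-15), although C-LTMRs, unlike the 2 nociceptors, overlapped with Aβ Field-LTMRs.

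Atp2b3, which encodes PMCA3, a fast pump largely restricted to neurons, was far lower in nonpeptidergic nociceptors than in the other 7 subtypes, and peptidergic nociceptors were the next lowest. Nonpeptidergic libraries held 4.94, 7.07 and 7.11 CPM, and peptidergic libraries 79.9, 79.7 and 78.8. All other libraries ran from 84.9 to 196, with C-LTMRs at 127, 123 and 124, so each kind of nociceptor stood apart from every other library. The step from nonpeptidergic to peptidergic nociceptors was 3.64 on the log2 scale (SE 0.23, adjusted p = 8.37e-12). The 7 pairs with nonpeptidergic nociceptors were the 7 pairs called, since no other pair reached the fold limit. Peptidergic nociceptors were below proprioceptors by 0.94 (SE 0.21, adjusted p = 0.000767) and below Aβ RA-LTMRs by 0.89 (SE 0.19, adjusted p = 0.000549). The called A-fibre difference of 1.74 (SE 0.11, adjusted p = 1.2e-12) averages this 1 low subtype with 2 others.

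Atp2b1, which encodes PMCA1, the pump found in almost all cells, was the one plasma membrane pump present at over 100 CPM in every library. C-LTMR libraries held 489, 487 and 484 CPM, Aβ Field-LTMRs 486, 418 and 380, and Aδ-LTMRs 511, 445 and 272. Proprioceptors were lowest, at 170, 132 and 140 CPM, below nonpeptidergic nociceptors at 190, 200 and 185, and overlapped only with Aβ RA-LTMR library 5 at 168. They were called below C-LTMRs by 1.73 on the log2 scale (SE 0.23, adjusted p = 1.23e-06) and below Aδ-, Aβ SA1- and Aβ Field-LTMRs by 1.02 to 1.54. The A-fibre mean differed from the rest by 0.06 (SE 0.11, adjusted p = 0.688), a value that changes sign on the RPKM scale (-0.22 on log2(RPKM + 1)) and without Aδ-LTMR libraries 1 and 2 together (-0.05).

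**Figure D3:**
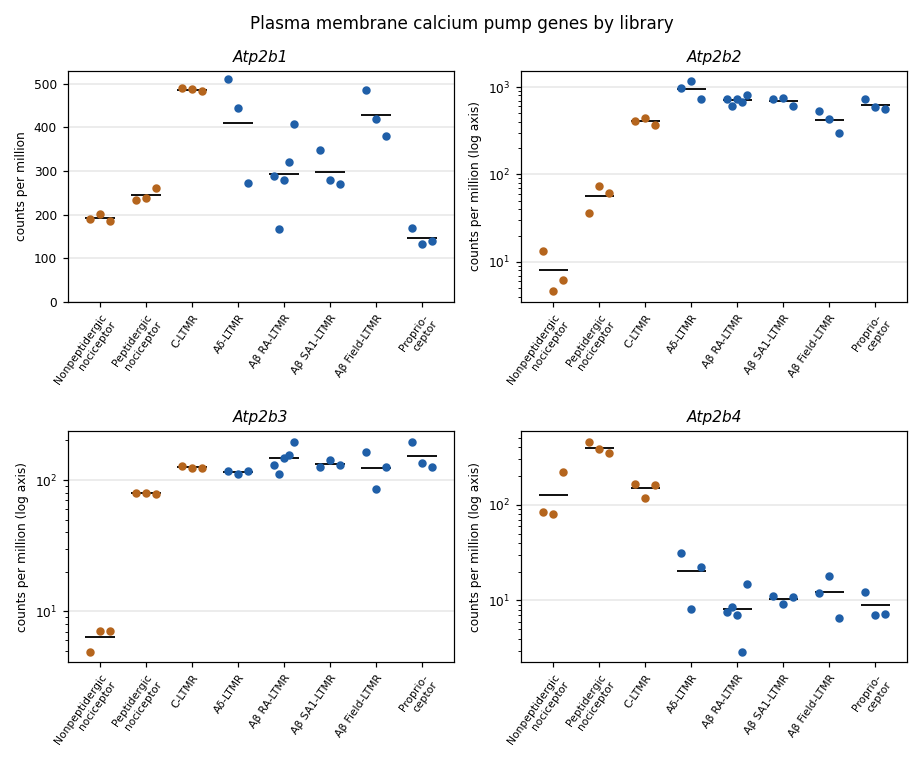
CPM of the 4 plasma membrane calcium pump genes in each library (points; nociceptors and C-LTMRs brown, A-fibre subtypes blue), with subtype means as bars; Atp2b1 has a linear axis from 0 and the others log axes. Atp2b4 is at 80.9 or more in every brown library and at 31.0 or less in every blue one, and Atp2b2 and Atp2b3 are lowest in nonpeptidergic nociceptors.

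On the per-length scale both the make-up of the family and its sum differed between subtypes. Summed PMCA RPKM was 38.1 ± 14.9 in nonpeptidergic nociceptors (SD, n = 3). It ran from 93.4 to 153 in the means of the other 7 subtypes. The C-LTMR mean was the highest, but C-LTMR libraries (149 to 157) overlapped with Aδ-LTMR libraries (122 to 171). Atp2b4 supplied 52.8 ± 15.8% of it in nonpeptidergic and 60.6 ± 5.56% in peptidergic nociceptors (n = 3 each), 17.1 ± 2.72% in C-LTMRs (n = 3), and 1.13% to 2.76% in A-fibre subtypes. Atp2b2 supplied 2.82 ± 2.10% in nonpeptidergic and 6.25 ± 2.27% in peptidergic nociceptors, 35.4 ± 2.90% in C-LTMRs, and from 43.7% (Aβ Field-LTMRs) to 65.4% (Aδ-LTMRs) in A-fibre subtypes. C-LTMRs thus lay between nociceptors and A-fibre subtypes in both shares. Such shares, and which subtype has the highest sum, depend on the gene lengths behind the RPKM. With CPM over GENCODE exon length, Atp2b4 supplied 39.4%, 46.4% and 11.9% in nonpeptidergic nociceptors, peptidergic nociceptors and C-LTMRs, and Atp2b1 led in the first (52.5%).

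In all, 8 shares over the 3 families were tested by an exact two-sided permutation of the 8 subtype means, 5 against 3, for which 0.0179 is the smallest p. Atp2b2 had 58.0% of its family in A-fibre subtypes and 14.8% in the rest (difference 43.2 points, exact p = 0.0179, adjusted p = 0.0476). Atp2b4 had 1.94% and 43.5% (difference -41.6 points, exact p = 0.0179, adjusted p = 0.0476). Neither passes without nonpeptidergic library 3, when the differences of 43.0 and -38.6 points have adjusted p = 0.0714, and in that setting the direction is kept. Both shares still separate the classes fully by subtype mean there, so their exact p stays at the smallest possible value. The adjusted p depends on how many of the 8 shares sit at that value together. Without that library the Slc8a2 share no longer does (adjusted p = 0.0952). Passing is therefore not a property of each share alone, and Atp2b2 and Atp2b4 are parts of the same family sum. Atp2b3 (difference 9.53 points, exact p = 0.0357, adjusted p = 0.0714) and Atp2b1 (-11.2 points, exact p = 0.125, adjusted p = 0.143) did not pass.

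**Figure D4:**
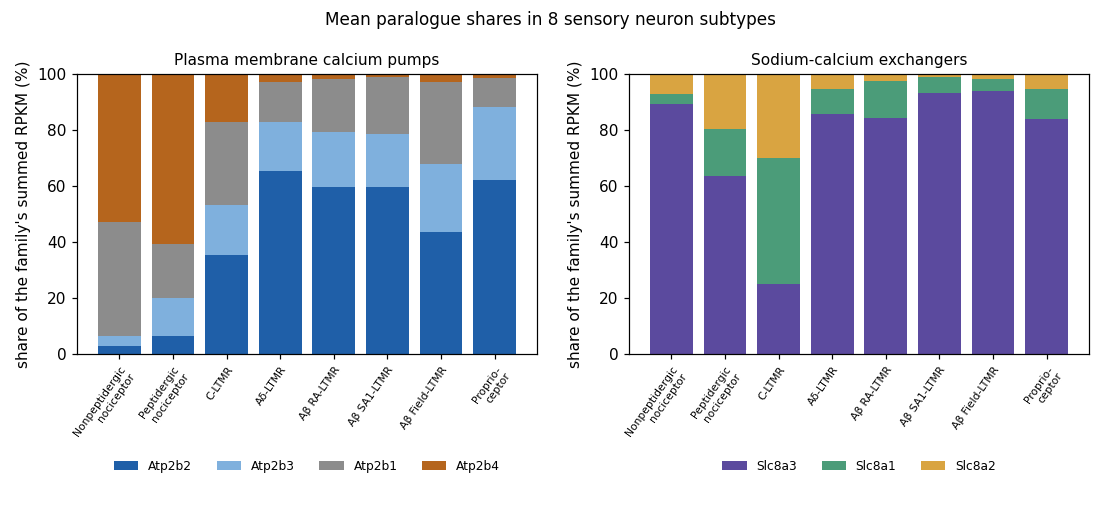
Mean share of each paralogue in the summed RPKM of its family (%) by subtype, for plasma membrane calcium pumps on the left and sodium-calcium exchangers on the right; bars are stacked from 0 to 100. Atp2b4 falls from 52.8% and 60.6% in the nociceptors to 17.1% in C-LTMRs and at most 2.76% in A-fibre subtypes, and Slc8a3 leads in every subtype except C-LTMRs, where Slc8a1 has 45.4% (17.3% over GENCODE exon length).

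The exchangers were expressed far below the pumps. Summed NCX RPKM ran from 1.18 ± 0.177 in nonpeptidergic nociceptors (SD, n = 3) to 11.2 ± 1.57 in Aβ RA-LTMRs (n = 5), and A-fibre means were all at 7.44 or more. Nociceptors and C-LTMRs were at 5.11 or less. By deposited RPKM, Slc8a3 was the leading exchanger in every library outside C-LTMRs and Slc8a1 in every C-LTMR library. Over GENCODE exon length Slc8a3 led in C-LTMRs too, with 46.1% against 36.6% for Slc8a2 and 17.3% for Slc8a1.

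Slc8a3, which encodes NCX3, the exchanger of brain and skeletal muscle, was high in every A-fibre library and low in every other. Aβ RA-LTMR libraries 1 to 5 held 50.3, 55.4, 59.6, 58.3 and 64.9 CPM, Aβ SA1-LTMRs 41.8, 62.7 and 46.2, and Aβ Field-LTMRs 62.0, 35.6 and 45.3. Aδ-LTMRs held 37.6, 42.9 and 37.8 CPM and proprioceptors 52.2, 32.4 and 31.9. Peptidergic nociceptors held 13.3, 16.2 and 15.6, C-LTMRs 6.59, 6.67 and 5.63, and nonpeptidergic nociceptors 7.04, 5.83 and 4.94. The lowest A-fibre library (31.9) lay above the highest of the rest (16.2), and the 5 A-fibre subtypes overlapped with one another.

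The A-fibre mean of Slc8a3 was higher by 2.49 on the log2 scale (SE 0.12, adjusted p = 3.11e-15), all 15 pairs across the classes were called, and none of the 10 within the A-fibre subtypes was. In the order of subtypes, 2 steps were called. Proprioceptors exceeded peptidergic nociceptors by 1.37 (SE 0.21, adjusted p = 1.07e-05; 0.85 and under the fold limit on log2(RPKM + 1)), and peptidergic nociceptors exceeded C-LTMRs by 1.26 (SE 0.21, adjusted p = 0.000107). C-LTMRs and nonpeptidergic nociceptors did not differ beyond their spread (0.08, SE 0.21, adjusted p = 0.795).

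Slc8a1, which encodes NCX1, the exchanger of heart muscle, was highest in C-LTMRs and Aβ RA-LTMRs. C-LTMR libraries held 7.89, 8.28 and 8.57 CPM, and Aβ RA-LTMR libraries 1 to 5 held 6.98, 7.99, 8.49, 4.35 and 2.97, overlapping with C-LTMRs. The shortest reads were of 25 bases in Aβ RA-LTMR libraries 1 to 3 and of 15 in libraries 4 and 5. C-LTMRs were not called above Aβ RA-LTMRs (0.42, SE 0.34, adjusted p = 0.332), but were with the read-length term in the fit (1.18, adjusted p = 0.0194). Nonpeptidergic nociceptors held 0.232, 0.185 and 0.0829 CPM, from 26 counts in all, and stood apart from every other library. The next subtype up, Aβ Field-LTMRs (1.49 ± 0.849 CPM, SD, n = 3), exceeded them by 3.20 on the log2 scale (SE 0.47, adjusted p = 4.66e-06). That call was lost with limma on log2(RPKM + 1), where the difference was 0.35 (adjusted p = 0.178). C-LTMRs exceeded Aβ Field-LTMRs by 2.43 (SE 0.41, adjusted p = 6.35e-05) and peptidergic nociceptors by 1.52 (SE 0.39, adjusted p = 0.00749). The A-fibre mean differed by 0.87 (SE 0.22, adjusted p = 0.00134), under the fold limit, and by -0.07 on log2(RPKM + 1).

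Slc8a2, which encodes NCX2, an exchanger of brain neurons, was highest in C-LTMRs and peptidergic nociceptors. C-LTMR libraries held 5.48, 6.12 and 3.47 CPM and peptidergic libraries 3.69, 3.12 and 2.79, overlapping with each other. All other libraries were at 2.23 CPM or less except Aβ RA-LTMR library 5 at 3.50. C-LTMRs were called above each A-fibre subtype by 1.74 to 3.62 on the log2 scale (largest adjusted p = 0.0203). Peptidergic nociceptors exceeded nonpeptidergic ones, at 0.273 CPM, by 3.53 (SE 0.66, adjusted p = 0.000147). The A-fibre difference of -0.90 (SE 0.31, adjusted p = 0.014) was short of the fold limit and reached it without Aβ RA-LTMR library 5 (-1.06, adjusted p = 0.000597) or without Aβ Field-LTMR library 1 (-1.02, adjusted p = 0.00876). Over 36 alternatives it ran from -2.07 to -0.47, with an adjusted p of up to 0.280 by the test of the setting concerned.

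C-LTMRs held all 3 exchangers in sizeable shares on the per-length scale. Slc8a1 supplied 45.4 ± 5.72% of summed NCX RPKM there (SD, n = 3), Slc8a2 29.9 ± 5.41% and Slc8a3 24.8 ± 0.606%. Slc8a3 supplied 83.8% to 94.1% in the A-fibre subtypes, 89.4 ± 3.15% in nonpeptidergic and 63.6 ± 2.05% in peptidergic nociceptors (n = 3 each). Of the 3 shares, that of Slc8a2 passed the exact permutation test, with 3.21% in A-fibre subtypes and 19.0% in the rest (difference -15.7 points, exact p = 0.0179, adjusted p = 0.0476), and it did not without nonpeptidergic library 3 (-14.9 points, adjusted p = 0.0952). The shares of Slc8a3 (28.9 points, exact p = 0.0714, adjusted p = 0.0952) and Slc8a1 (-13.2 points, exact p = 0.161, adjusted p = 0.161) did not pass, nor did that of Atp2a3 among SERCA genes (-1.26 points, exact p = 0.0714, adjusted p = 0.0952).

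**Figure D5:**
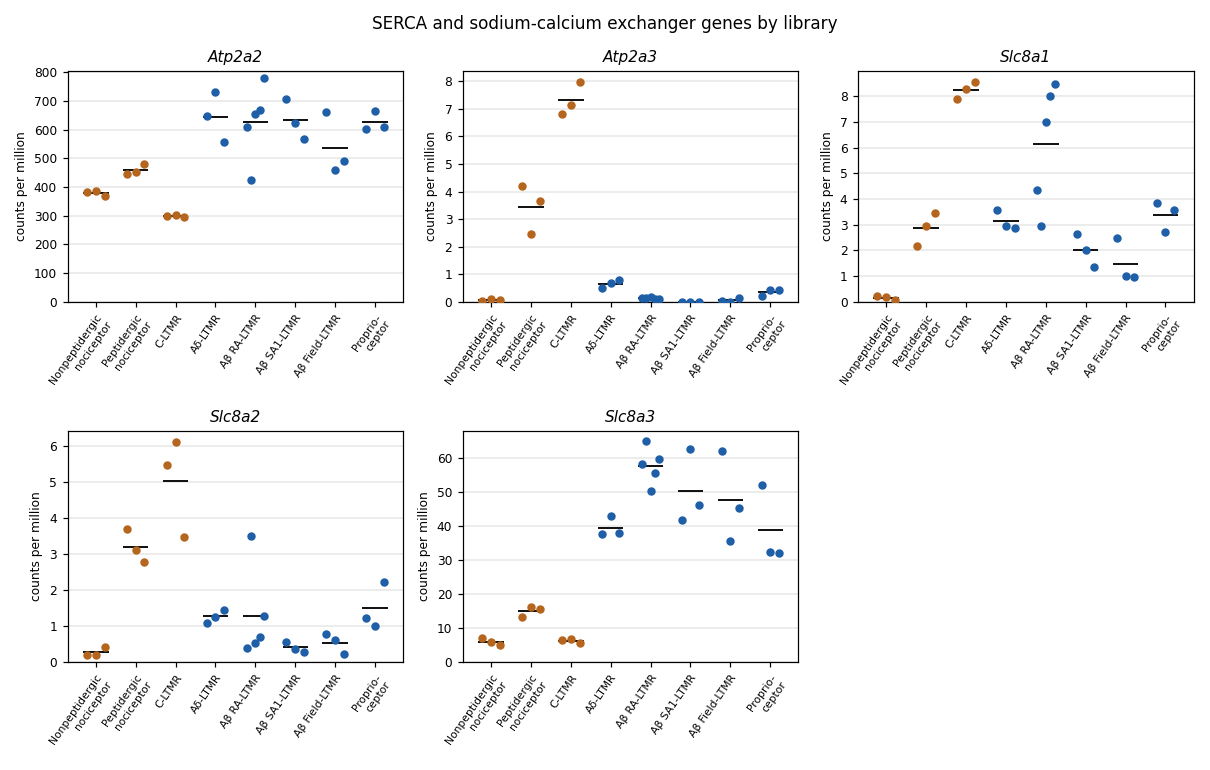
CPM of the SERCA and sodium-calcium exchanger genes in each library (points; nociceptors and C-LTMRs brown, A-fibre subtypes blue), with subtype means as bars and linear axes from 0. Slc8a3 is at 31.9 or more in every blue library and at 16.2 or less in every brown one, and Atp2a3, Slc8a1 and Slc8a2 have their highest means in C-LTMRs.

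Some members followed one another across the 26 libraries. Pearson's r of log2 CPM was 0.900 between Atp2b2 and Atp2b3, 0.855 between Atp2b3 and Slc8a1, 0.847 between Atp2a2 and Slc8a3, and 0.834 between Atp2a3 and Slc8a2. The lowest were -0.829 between Atp2b4 and Slc8a3 and -0.717 between Atp2b4 and Atp2a2. These are descriptions over libraries that share their subtype. By the same measure the 2 genes most like each member were Rassf8 and Zak for Atp2a2 (0.908 and 0.902), Cmbl and Btc for Atp2a3 (0.914 and 0.905), and Kif5c and Rasa1 for Atp2b1 (0.915 and 0.912). They were Htr1d and Mcam for Atp2b2 (0.983 and 0.979), Lrrk2 and Lphn1 for Atp2b3 (0.980 each), and Nptxr and Ica1l for Atp2b4 (0.943 and 0.933). For the exchangers they were Fat1 and Myo10 for Slc8a1 (0.915 and 0.914), Adamtsl2 and Gstm1 for Slc8a2 (0.846 and 0.845), and Epn3 and Phyhipl for Slc8a3 (0.970 and 0.968).

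The wider calcium-handling genes were read in the same A-fibre comparison from lists chosen by function, 59 genes of which 56 were in the count table and 53 passed the filter. Of the 53, 11 were called higher in A-fibre subtypes (20.8%, against 15.6% of all genes) and 8 lower (15.1%, against 12.9%), with a median log2 difference of 0.09 beside 0.02 over all genes. Among regulators of SERCA and the enzymes that act on phospholamban, 5 of 14 were higher and 2 lower. Hspb6, a small heat shock protein that inhibits the phosphatase acting on phospholamban, rose by 3.28 (SE 0.18, adjusted p = 3.91e-14) and was highest in proprioceptors, at 61.9 CPM against at most 24.95 in another subtype mean. Prkaca, a catalytic subunit of protein kinase A, rose by 1.40 (SE 0.13, adjusted p = 1.35e-09). Prkacb, another catalytic subunit, named after its values were seen, averaged 367 CPM in A-fibre subtypes and 373 in the rest. Camk2a, a subunit of calmodulin-dependent kinase II, fell by 3.38 (SE 0.19, adjusted p = 9.07e-14), from 434 and 460 CPM in the 2 nociceptors to 7.53 in proprioceptors. C-LTMRs, at 86.4 CPM, were near Aβ Field-LTMRs at 71.5. The other subunits, named after their values were seen, went both ways. A-fibre subtypes and the rest averaged 268 and 176 CPM of Camk2g, 250 and 395 of Camk2d, and 52.8 and 33.8 of Camk2b. Ppp1r1a, an inhibitor of protein phosphatase 1, fell by 2.45 (SE 0.28, adjusted p = 4.43e-08), with 156 CPM in nonpeptidergic nociceptors and 37.8 in C-LTMRs. Peptidergic nociceptors, at 9.43 CPM, were below Aδ-LTMRs (21.2) and Aβ RA-LTMRs (11.8), so the classes did not separate. The other 3 that rose, named after their values were seen, were Camk2b, S100a1 and Mrln, the last at under 1 CPM in both classes. Peptidergic nociceptors held 52.8 CPM of Camk2b, above Aδ-LTMRs (31.5), and 3.68 of S100a1, above Aβ SA1-LTMRs (3.11).

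Among store release and store entry genes, 4 of 11 were higher (36.4%, background 15.6%) and 2 lower (18.2%, background 12.9%). In lists this small, such counts describe the genes named and not the list. Ryr2, the ryanodine receptor of heart and brain, rose by 3.47 on the log2 scale (SE 0.19, adjusted p = 2.13e-14), from 3.17 CPM in nonpeptidergic nociceptors to 334 in Aβ SA1-LTMRs. Peptidergic nociceptors, at 81.8 CPM, were close to Aδ-LTMRs (91.9) and proprioceptors (93.9). Itpr3, an inositol trisphosphate receptor, rose by 2.34 (SE 0.15, adjusted p = 8.68e-13). Orai3, a store-operated channel subunit, fell by 1.93 (SE 0.16, adjusted p = 8.66e-11). The remaining calls, named after their values were seen, were Itpr2 and Ryr3, which rose, and Ryr1, which fell at 1.33 CPM or less in either class. Ryr3 was at 19.4 CPM in peptidergic nociceptors, above every A-fibre mean except that of Aβ Field-LTMRs (25.2). Itpr2 averaged 1.18 CPM in A-fibre subtypes and 0.452 in the rest. Its Aβ SA1-LTMR mean (0.0850) was as low as that of nonpeptidergic nociceptors (0.0858).

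Plasma membrane pump partners had 2 of 5 genes higher (40%, background 15.6%) and none lower. Nptn, which encodes neuroplastin, an auxiliary subunit of PMCA pumps, rose by 1.81 on the log2 scale (SE 0.13, adjusted p = 1.3e-11), and like Atp2b2 and Atp2b3 it was lowest in nonpeptidergic nociceptors, at 31.3 CPM against 110 or more in every other subtype mean. Calm3, a calmodulin gene, rose by 1.02 (SE 0.11, adjusted p = 6.12e-09). Of 10 mitochondrial uptake genes none was higher and 2 were lower (20%, background 12.9%). These were Mcub by 2.91 (SE 0.28, adjusted p = 1.89e-09) and Micu2 by 1.17 (SE 0.14, adjusted p = 4.36e-08). Of 7 other calcium transporters none was higher and 2 were lower (28.6%, background 12.9%). These were Slc24a1 and Slc24a4 (named after their values were seen), both under 3 CPM in either class. Slc24a4 was at 7.47 CPM in C-LTMRs and at most 0.478 in any other subtype mean. Nonpeptidergic nociceptors, at 0.0233 CPM of Slc24a4, were below every A-fibre subtype mean (0.0338 to 0.254). None of the 6 store lumen genes was called.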

How the data were processed

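RNA was measured in 26 libraries of 8 sorted neuron subtypes. The authors deposited raw counts per Ensembl gene, which entered every test, and RPKM per gene, used for shares and for levels between genes. The gene length behind the RPKM is not given in the sources used here, and the length implied by counts and RPKM varies between libraries. The deposited alignment summary gives mapping and exonic shares as a fraction. Per the submitters' processing notes, the build was mm10 and the tools, given without roles, were FastQC 0.11.3, STAR, Cuffdiff, HTSeq 0.6.1 and DESeq2 1.14.1. Per the labels' protocols, RNA was amplified with a NuGEN kit before TruSeq library preparation. Strand use is not given in the sources used here.

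Counts were fitted with edgeR 4.0.16 (filterByExpr, TMM scaling, robust quasi-likelihood test, 1 mean per subtype) in R 4.3.3, and p-values were adjusted by Benjamini-Hochberg over 17411 genes. Between libraries of a subtype the coefficient of variation was 0.327 (dispersion 0.107). SE is the absolute log2 fold change divided by the square root of F. CPM is a count scaled to a fixed library size after TMM. The alternatives were median-of-ratios scaling, no filter, DESeq2 1.42.0, a replicate block, a satellite glia or read-length term, limma 3.58.1 on log2(RPKM + 1) and log2(RPKM + 0.1), and leaving out each library. For shares, gene length was also taken as the median length implied by counts and RPKM and, chosen after seeing the data, as GENCODE exon length. Aδ-LTMR libraries 1 and 2 were also left out together, likewise chosen after seeing the data. The fitting code was tested on simulated counts. Positions and sequences come from GENCODE mouse release 21.

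The members and lists were chosen with earlier results of these data known. All members are named. Of each list, up to 2 genes in each direction with the largest called difference and at least 5 CPM in the higher class are named, and the 5 genes most like Pln and 2 most like each other member, leaving out predicted genes. Strit1, Erln and Arln of the first list were not matched to a symbol, and Sln, Atp2a1 and Atp2c2 did not pass the filter.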

Additional observations from a re-analysis of the deposited data

Results flagged for a closer look

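Slc8a2 in Aβ RA-LTMR library 5, at 3.50 CPM (3.497), stood far from the other 4 libraries of that subtype, which ran from 0.400 to 1.29 CPM. Its gap to the nearest library was 0.713 of the subtype's whole range, just above the limit set for 5 samples (Dixon's test at 95%). Only the 10 members in this 1 subtype of 5 libraries were examined in this way, and chance gives about 1 such value in 20. The same library had the lowest exonic share, 45.7%. The part of library quality in the value was not tested.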

How the results depend on the processing

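Over 36 alternatives the 9 members all passed the test among subtypes, and 4 to 6 members passed in the A-fibre comparison (5 to 6 when 1 library was left out). Of 1008 alternative values for genes, 956 kept their direction and side of the threshold, 19 fell below it, 6 rose above it, 3 were counts over all genes that moved by over 1.5 times, and 24 changed sign. These 24 belong to 5 differences that were short of the call in every setting in which they changed sign (lowest adjusted p = 0.0668). The A-fibre difference of Atp2b1 went from 0.06 to -0.2441 with the read-length term, -0.2244 on log2(RPKM + 1) with or without the filter, -0.2332 on log2(RPKM + 0.1) and -0.0505 without Aδ-LTMR libraries 1 and 2 together, and that of Slc8a1 to -0.0745 on log2(RPKM + 1) with or without the filter. Aδ-LTMRs minus Aβ SA1-LTMRs went, for Atp2b1, from 0.46 to -0.3146 on log2(RPKM + 1) with or without the filter, -0.3256 on log2(RPKM + 0.1) and -0.1407 without the Aδ-LTMR pair of libraries, and, for Atp2a2, from 0.03 to -0.1827, -0.1841 and -0.1875 in the same settings and to -0.005 without the filter on counts (-0.1118 to 0.1236 when 1 library was left out). Proprioceptors minus Aβ RA-LTMRs in Atp2b3 went from 0.05 to -0.1264 with the replicate block (-0.2313 to 0.1649 when 1 library was left out). Limma on log2(RPKM + 1) gave 72 called combinations of gene and pair in place of 121, with or without its filter, and 11 called list genes in place of 19 (16 to 20 and 117 to 127 when 1 library was left out); over all genes it called 1956 with and 1950 without the filter, and the satellite glia term left 2908, in place of 4969. The median log2 difference of all genes moved from 0.02 to -0.16 and -0.21 on the 2 filtered RPKM scales and to 0.15 with DESeq2, so values near 0 are relative to that shift. When 1 library was left out, the shares differed by 42.6 to 43.9 points for Atp2b2, -43.5 to -38.6 for Atp2b4, -16.8 to -14.9 for Slc8a2 and 9.18 to 9.74 for Atp2b3, which passed without Aδ-LTMR library 2 (9.67 points, adjusted p = 0.0357). CPM over GENCODE exon length, an alternative chosen after seeing the data, moved them further, to 37.9 points for Atp2b2, -31.6 for Atp2b4, -17.3 for Slc8a2, 22.8 for Slc8a3 and -5.54 for Slc8a1, with the same 3 passing; counts over the median implied length gave 43.9, -42.4, -15.8, 29.5 and -13.7. The Pln ratio ran from 23.5 to 51.2 over these omissions. Replicate numbers did not pair the libraries: deviations of same-numbered libraries correlated at -0.154 to 0.239 (median 0.002), and 9 of 24 libraries were closest to their own number. With the replicate block 6 members passed in the A-fibre comparison, Slc8a2 (-1.03, adjusted p = 0.00132) being added, and 127 combinations of gene and pair; no other call of a member in that comparison changed. The lowest members, Atp2a3, Slc8a1 and Slc8a2, rest on few counts, and amplification before sequencing is not covered by counting error.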

Other observations

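The low members Atp2a3, Slc8a1 and Slc8a2 had their highest subtype mean in C-LTMRs. C-LTMRs also had the highest mean of summed PMCA RPKM (153 ± 4.07, SD, n = 3), overlapping with Aδ-LTMRs (149 ± 24.9, n = 3). Their mean of summed SERCA RPKM was the lowest (60.0 ± 1.74, n = 3). On the per-length scale C-LTMRs and nonpeptidergic nociceptors (63.1 ± 1.16, n = 3) held the least SERCA by subtype mean. Their PMCA means, 153 and 38.1, were the highest and lowest of the 8 subtypes by deposited RPKM, an order that depends on gene length. Nonpeptidergic nociceptors had the lowest mean of Atp2b2, Atp2b3, Slc8a1, Slc8a2 and Slc8a3 among the 8 subtypes and also the lowest satellite glia sum, 426 to 519 CPM; the part of glial RNA in these levels was not tested.

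Abundant transporters were also found outside the 10 members. Slc24a2, a potassium-dependent sodium-calcium exchanger chosen after its values were seen, averaged 1107 CPM in A-fibre subtypes and 518 in the rest (log2 difference 0.98, SE 0.14, adjusted p = 7.79e-07 by edgeR's quasi-likelihood test), just under the fold limit. The classes did not separate in Slc24a2: Aδ-LTMRs, at 354 CPM, were near peptidergic nociceptors (352) and below nonpeptidergic nociceptors (482) and C-LTMRs (718). The other A-fibre means ran from 984 to 1633 CPM. Atp2c1, the calcium pump of the Golgi, chosen in the same way, averaged 117 and 220 CPM (-0.90, SE 0.10, adjusted p = 1.22e-08). Nonpeptidergic nociceptors, at 128 CPM of Atp2c1, were below Aδ-LTMRs (131) and Aβ Field-LTMRs (186).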
